A study of Mus musculus with 8 samples.

Results

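The genes described are the ligands and receptors of the growth factors that neurosphere medium supplies: Fgf1, Fgf2, Fgfr1, Fgfr2, Fgfr3, Egf, Egfr, Erbb2, Lif and Lifr. They were taken by gene symbol from the platform's probe annotation and are 10 of 15094 genes named there. The array carried 13 probes for them among 21582, 3 for Erbb2, 2 for Fgf1 and 1 for each of the other genes. Neurospheres are balls of dividing neural progenitors grown in suspension, here from mouse cortex at gestational day 12.5. Both sets of cultures were grown in serum-free medium with basic fibroblast growth factor (20 ng/ml), human recombinant epidermal growth factor (20 ng/ml) and human recombinant leukaemia inhibitory factor (0.15 ng/ml), plus insulin, transferrin, selenium, heparin and progesterone. Control cultures received no ethanol. Exposed cultures grew for 5 days with ethanol at 320 mg/dl. Both were then differentiated by taking away epidermal growth factor and leukaemia inhibitory factor, the exposed ones for 3 days and without ethanol. Fibroblast growth factor stayed in the medium of both sets, so the transcripts were measured while 1 of the 3 factors was still supplied. No label used here names the mouse strain.

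Fibroblast growth factors bind receptor tyrosine kinases together with heparan sulphate, and the receptors signal through the adaptor Frs2 to Ras, Raf, MEK and ERK. Epidermal growth factor binds Egfr, which pairs with itself or with Erbb2, a receptor that has no ligand of its own. Leukaemia inhibitory factor binds Lifr, which pairs with the shared receptor subunit gp130, encoded by Il6st, and signals through JAK kinases and STAT factors. In cortical progenitors fibroblast and epidermal growth factors keep cells dividing, and leukaemia inhibitory factor is known for favouring stem cell maintenance and astrocyte formation.

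Control and exposed RNA were hybridised together on 8 arrays. Exposed RNA carried Cy3 on replicates 1 to 4 and Cy5 on replicates 5 to 8. The deposited values are log2 ratios of the channels, and no source used here says which channel or dye was divided by which. Each probe was therefore described by a pair of numbers on the log2 scale, given with the standard error of a limma fit. The shared part is the mean of both dye orientations' means, each over the 3 or 4 arrays with a value. It would hold the ethanol effect if the ratios are condition over condition. The turning part is 0.5 times the difference between those means (Cy5 minus Cy3 for the exposed RNA), and would hold that effect if the ratios are dye over dye. Under either reading, the part without the ethanol effect would hold differences that follow the dyes. Array codes begin with a where exposed RNA carried Cy3 and with b where it carried Cy5. A difference between these sets of arrays would also enter the turning part and could not be told apart. A sign is the sign as deposited and gives no direction of an ethanol effect. All per-array values below are deposited log2 ratios minus the array's median. A ratio carries no level, so transcripts cannot be ranked by abundance, and in RNA from whole cultures fewer cells of a type and less RNA per cell cannot be told apart. The labels do not tie arrays to separate cultures, and the p-values measure the spread between arrays.

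Between 75.4% and 87.1% of the probes per array had a computable ratio. Of the members' 104 values 16 were an exact 0 and were taken as missing (15.4%). Over all probes 27302 of 172656 values were an exact 0. With each array's highest value, also taken as missing and held by no member probe, 17.1% of all values were missing. The test needed at least 3 computable values per orientation, which left 11 of the 13 probes and 8 of the 10 genes. Fgfr3 and Lif were not tested. Over all probes tested the correlation between arrays lay between 0.143 and 0.372 within an orientation and between -0.279 and 0.0737 across the orientations.

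No ligand or receptor passed an adjusted p of 0.05 in either part (limma, Benjamini-Hochberg over 15345 probes). At an unadjusted p under 0.05, 1 of the 11 probes lay in the shared part, the Fgf1 probe AF067191, and 1 in the turning part, Fgf2. The background was 0% of all probes tested passing in the shared part and 1.56% in the turning part. At an unadjusted p under 0.05 it was 13.9% and 13.8%. The members' medians were -0.16 in the shared part and 0.03 in the turning part, beside -0.06 and 0.11 for all probes tested. Of the 11 probes 5 were positive in the shared part, beside 46.1% of all probes, and 5 negative in the turning part, beside 43.1%. Without centring the median turning part of all probes moved from 0.11 to 0.42. The median size of the parts, without sign, was 0.31 and 0.36, against 0.44 and 0.41 for all probes.

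**Figure D1:**
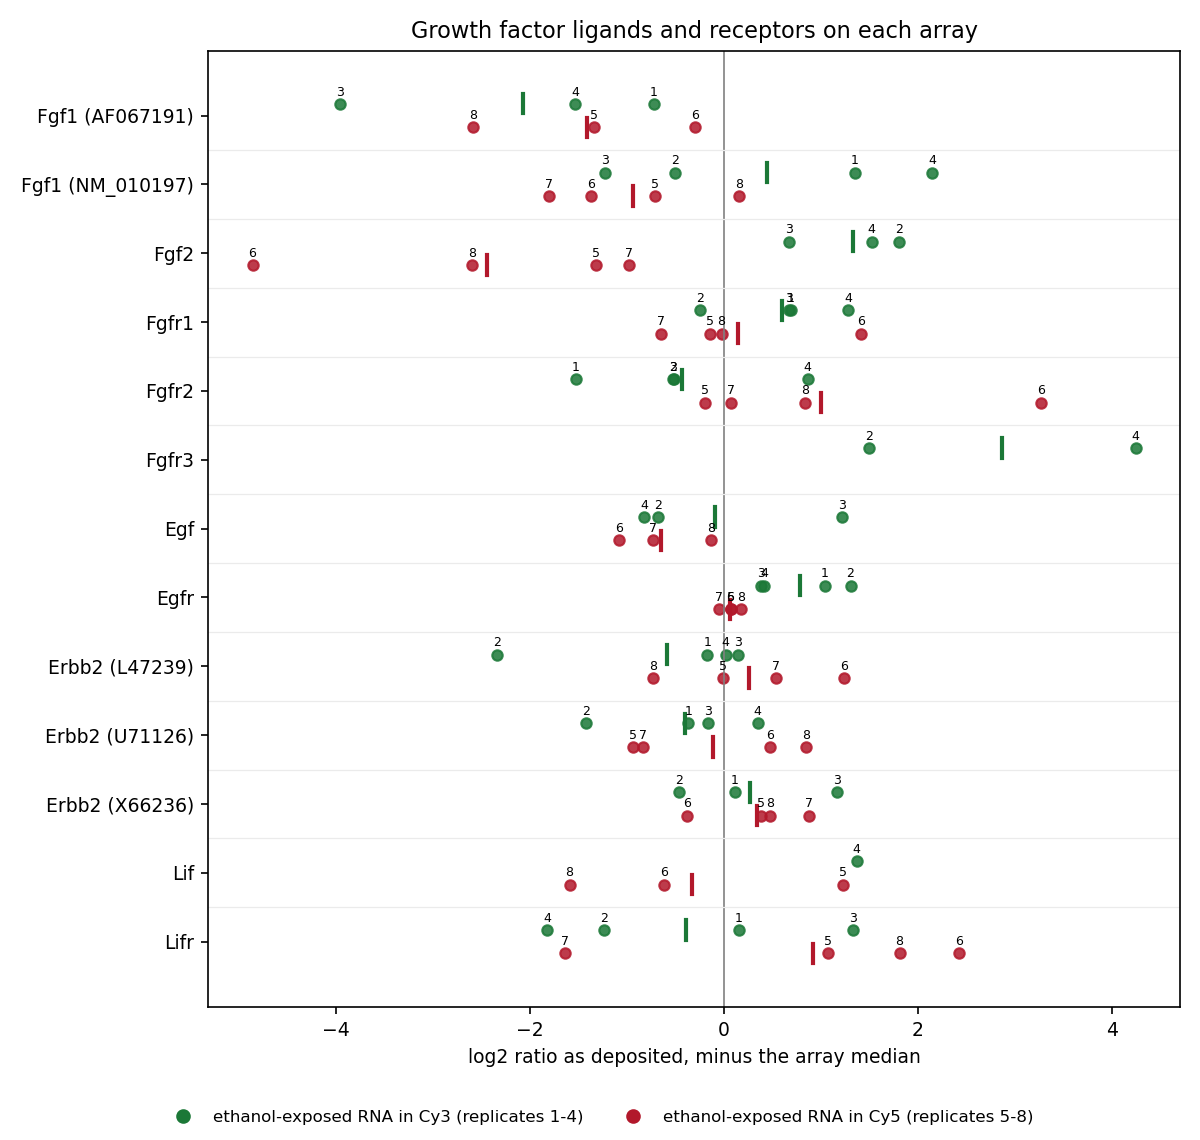
Log2 ratios of the 13 probes on each array, minus the array's median (horizontal axis, log2 scale); each point is 1 array with its replicate number, green for exposed RNA in Cy3 and red for Cy5, and vertical ticks are the means. Fgf2 is the member whose values lie between 0.68 and 1.81 in 1 orientation and between -4.86 and -0.98 in the other, and Fgfr3 has values on 2 arrays.

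Fgf2, which encodes basic fibroblast growth factor, the mitogen left in the medium, had the largest turning part of the members. With exposed RNA in Cy3 it read 1.81, 0.68 and 1.53 on replicates 2, 3 and 4, with no value on replicate 1. With exposed RNA in Cy5 it read -1.32, -4.86, -0.98 and -2.59 on replicates 5 to 8. All 3 values of 1 orientation were thus positive and all 4 of the other negative, and the value on replicate 6 lay at percentile 0.943 of that array's ratios. The size of the turning part was 3.70-fold, for 0.5 times the log2 difference between the orientations' means. The turning part was -1.89 ± 0.49, with a 95% interval from -3.00 to -0.77. It did not pass over all probes (adjusted p = 0.117, unadjusted p = 0.00402, limma), where it ranked at place 525 of 15345. Without replicate 6 the turning part was -1.48 (adjusted p = 0.171). With robust regression it was -1.70 and passed (adjusted p = 0.0465), as did 744 probes in all. Orientations on opposite sides of 0 were found for 4.29% of all probes tested, and orientations without overlap in this direction for 5.21%. The shared part of Fgf2 was -0.55 ± 0.49 (adjusted p = 0.647).

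The 250 bases ahead of the annotated start of Fgf2 are shown because it is the member with the largest turning part, and those of Il6st because that receptor subunit, described further on, passed in the same direction. Both were chosen after their values were seen. They are RefSeq sequences of GRCm38.p6 on the plus strand, read 5′ to 3′, at chr3:37348403-37348652 and chr13:112463820-112464069. Capitals mark the GC box GGGCGG on either strand.
Fgf2: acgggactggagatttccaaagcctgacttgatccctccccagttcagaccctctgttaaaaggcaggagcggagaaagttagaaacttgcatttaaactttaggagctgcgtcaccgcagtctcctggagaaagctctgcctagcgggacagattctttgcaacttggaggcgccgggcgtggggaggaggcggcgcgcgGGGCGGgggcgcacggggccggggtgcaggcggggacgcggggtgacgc
Il6st: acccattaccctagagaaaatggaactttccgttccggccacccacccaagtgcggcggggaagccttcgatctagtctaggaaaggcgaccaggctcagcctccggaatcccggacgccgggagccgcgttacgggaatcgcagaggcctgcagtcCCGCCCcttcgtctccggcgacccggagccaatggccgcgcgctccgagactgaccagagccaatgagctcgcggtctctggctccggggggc
Each window held 1 GC box, starting 49 bases before the gene's start in Fgf2 and 93 bases before it in Il6st. A GC box was found in 32.7% of 32841 promoter windows of that length. Neither window held the TATA box TATAAA on either strand, which 12.4% of the windows did. GC content was 62.4% in Fgf2 and 66.0% in Il6st, against a median of 52.4%. These letters describe the windows, and the arrays measured transcripts, not promoters.

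Fgf1 encodes acidic fibroblast growth factor, which binds all the main receptors of the family. Its probe AF067191 was negative wherever it had a value, at -0.72, -3.96 and -1.53 on replicates 1, 3 and 4 and at -1.34, -0.30 and -2.59 on replicates 5, 6 and 8. The shared part was -1.74 ± 0.53, the largest of the members at 3.34-fold, with a 95% interval from -2.96 to -0.52. It did not pass (adjusted p = 0.241, unadjusted p = 0.0109, limma). Of all probes tested, 3.57% kept 1 sign throughout in this way. The other Fgf1 probe, NM_010197, did not share that pattern. It read 1.35, -0.50, -1.22 and 2.15 on replicates 1 to 4 and -0.71, -1.37, -1.81 and 0.16 on replicates 5 to 8. Its shared part was -0.24 ± 0.43 and its turning part -0.69 ± 0.43 (adjusted p = 0.825 and 0.531). On 6 arrays with both probes the sign was the same on 3, and the largest gap between them, on replicate 4, was 3.68. Which transcripts each probe matches was not analysed here.

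None of the tested receptors of this family passed in either part. Fgfr1, the receptor best known from cortical progenitors, read 0.69, -0.24, 0.67 and 1.28 with exposed RNA in Cy3 and -0.14, 1.42, -0.65 and -0.02 with Cy5. The orientations overlapped, and the shared part was 0.38 ± 0.33 and the turning part -0.23 ± 0.33 (adjusted p = 0.636 and 0.815). Their 95% intervals ran from -0.36 to 1.11 and from -0.96 to 0.51. Fgfr2 read -1.53, -0.52, -0.52 and 0.87 on replicates 1 to 4 and -0.19, 3.27, 0.07 and 0.84 on replicates 5 to 8. Replicate 6 was the highest, at percentile 97.3 of its array. Fgfr2 had a shared part of 0.29 ± 0.44 and a turning part of 0.71 ± 0.44 (adjusted p = 0.797 and 0.525). Without replicate 6 its turning part was 0.33 and its shared part -0.09. Fgfr3, a receptor gene also known as a marker of radial glia and astrocytes, had a value on 2 arrays, 1.50 on replicate 2 and 4.25 on replicate 4. The other 6 arrays held an exact 0 for it, so that no orientation could be compared.

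Epidermal growth factor, the mitogen taken away for differentiation, is encoded by Egf. It read -0.68, 1.22 and -0.82 on replicates 2, 3 and 4 and -1.08, -0.73 and -0.13 on replicates 6, 7 and 8. Replicate 3 was the only positive value among 6. The shared part was -0.37 ± 0.42 and the turning part -0.28 ± 0.42 (adjusted p = 0.721 and 0.821).

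Its receptor Egfr had the smallest standard error of the members. It read 1.04, 1.31, 0.38 and 0.42 with exposed RNA in Cy3 and 0.08, 0.07, -0.05 and 0.17 with Cy5. It was positive on 7 of 8 arrays, with means of 0.79 ± 0.46 and 0.07 ± 0.09 (SD, n = 4 arrays each). The orientations did not overlap after centring, as for 10.9% of all probes tested in either direction. In the values as deposited they did, at 0.06 to 0.87 and -0.03 to 0.69, and the turning part fell to -0.04 from -0.36 ± 0.27. Neither part of Egfr passed (shared part 0.43 ± 0.27, adjusted p = 0.504; turning part, adjusted p = 0.625). The interval of the shared part ran from -0.18 to 1.03 and that of the turning part from -0.96 to 0.25.

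Erbb2, the partner receptor without a ligand, was measured by 3 probes. L47239 read -0.17, -2.34, 0.14 and 0.02 on replicates 1 to 4 and -0.003, 1.24, 0.53 and -0.73 on replicates 5 to 8, with replicate 2 far below the other arrays of its orientation. U71126 read -0.37, -1.42, -0.16 and 0.35, then -0.94, 0.48, -0.83 and 0.85. X66236 read 0.12, -0.46 and 1.17 on replicates 1 to 3, had no value on replicate 4, and read 0.39, -0.38, 0.88 and 0.48 on replicates 5 to 8. All 3 probes were lowest on replicate 2 among the arrays with exposed RNA in Cy3. Their shared parts were -0.16 ± 0.38, -0.26 ± 0.34 and 0.31 ± 0.35, and their turning parts 0.42 ± 0.38, 0.14 ± 0.34 and 0.03 ± 0.35. None of the 6 passed (adjusted p from 0.688 to 0.981). The probes with a value had the same sign on 2 of 8 arrays, replicates 2 and 4. On replicate 4 only L47239 and U71126 had a value. The gap between the highest and the lowest ranged from 0.33 on that array to 1.88 on replicate 2.

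Leukaemia inhibitory factor, the cytokine withdrawn together with epidermal growth factor, is encoded by Lif. It had values on 4 arrays, 1.37 on replicate 4 and 1.23, -0.62 and -1.59 on replicates 5, 6 and 8. With 1 array in the first orientation it was not tested. Its receptor Lifr read 0.16, -1.23, 1.33 and -1.82 on replicates 1 to 4 and 1.07, 2.43, -1.64 and 1.81 on replicates 5 to 8. High and low values occurred in both orientations, from percentile 12.8 to percentile 93.0 of an array's ratios. Lifr had the largest standard error among the member probes with values on all 8 arrays, with a shared part of 0.26 ± 0.51 and a turning part of 0.65 ± 0.51 (adjusted p = 0.843 and 0.636).

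**Figure D2:**
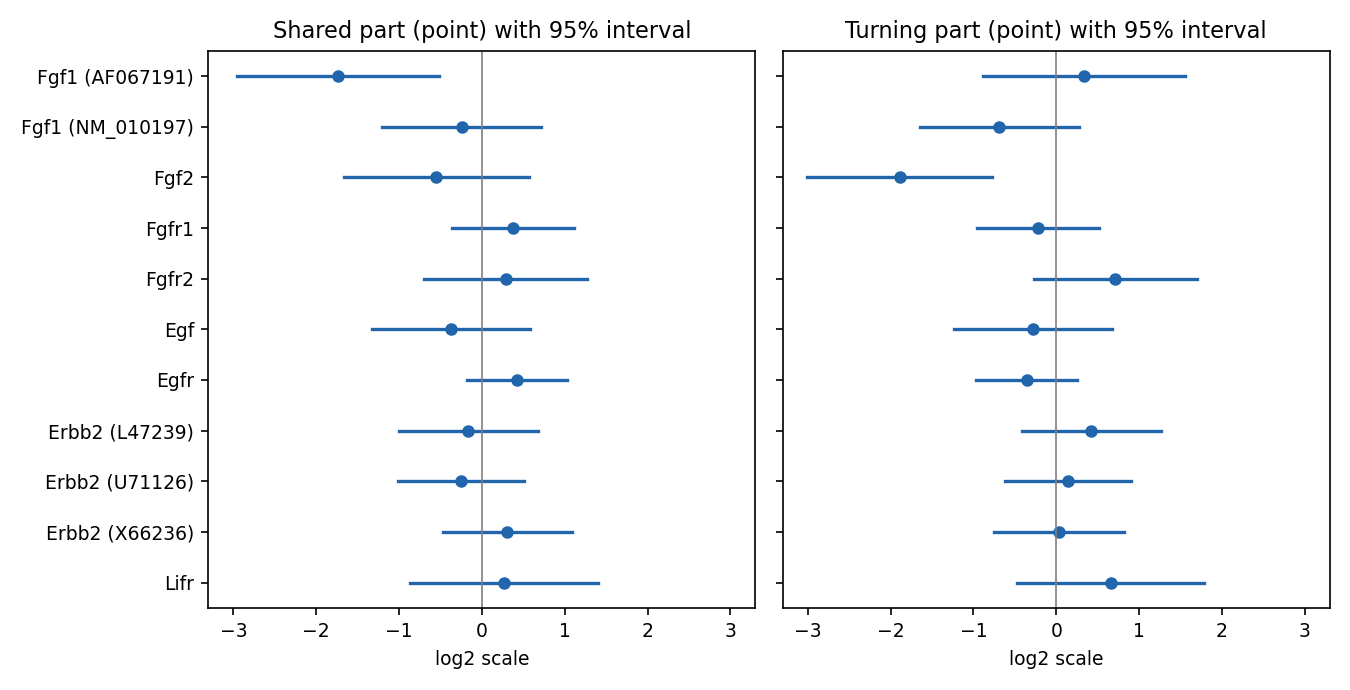
Shared part (left) and turning part (right) of the 11 tested probes on the log2 scale, as points with 95% intervals of the limma fit. The interval of the shared part of the Fgf1 probe AF067191, -2.96 to -0.52, and that of the turning part of Fgf2, -3.00 to -0.77, lie off 0 before adjustment over all probes, and the other 20 intervals include 0.

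Other pathway and family genes were described from 9 lists of further family members, receptors, JAK and STAT genes, adaptors and kinases, inhibitors and targets. Of their 145 genes 117 had a probe, and 92 probes of 86 genes were tested. In the shared part 0 of the 92 passed (limma; 17 at an unadjusted p under 0.05, 18.5% against 13.9% of all probes). In the turning part 5 passed (5.43% against 1.56%): 3 were positive and 2 negative. At an unadjusted p under 0.05 there were 16 (17.4% against 13.8%). All 5 kept their sign and their call without centring, where 417 probes passed, 312 of them positive, beside 118 of 239 with it. The 5 were Il6st, Stat5a, Tyk2, Spred2 and Fosl2. Il6st came from the list with leukaemia inhibitory factor relatives, and Stat5a and Tyk2 from the general list of JAK and STAT genes. Spred2 came from the feedback inhibitors and Fosl2 from the targets. In the JAK and STAT list 10 probes were tested, and Stat3 and Jak1 did not pass in the turning part. Their turning parts were -0.79 ± 0.30 and 0.30 ± 0.33 (limma adjusted p = 0.289 and 0.745). Stat3 was named after its value was seen.

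Il6st, the receptor subunit gp130 that pairs with Lifr, read 5.82, 3.97, 5.41 and 4.07 on replicates 1 to 4 and 0.12, -4.39, -2.04 and -4.25 on replicates 5 to 8. The turning part was -3.73 ± 0.52 (adjusted p = 0.00412, limma). The orientations did not overlap, and replicate 5 was the single Cy5 array above 0. The call was lost without the 3 arrays whose code ends in r (replicates 3, 4 and 8), at -3.50 (adjusted p = 0.191). The shared part of Il6st was 1.09 ± 0.52 and did not pass (adjusted p = 0.381, limma). A second Il6st probe, NM_010560, had values on 2 arrays, 2.31 and 0.08, and was not tested. Stat5a, a STAT transcription factor, read 1.88, 3.59 and 3.18 on replicates 2, 3 and 4 and between -4.01 and -1.85 on replicates 5 to 8. Its turning part was -2.79 ± 0.39 (adjusted p = 0.00678).

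Tyk2, a JAK family kinase, turned the other way. It read between -4.07 and -1.72 on replicates 1 to 4 and 4.18, 2.14, 1.72 and 1.29 on replicates 5 to 8. Its turning part of 2.34 ± 0.42 passed narrowly (adjusted p = 0.0219), and the call was lost without any 1 of replicates 1 to 6 (turning part 2.03 to 2.44, adjusted p = 0.0512 to 0.0714). Without the r arrays its turning part was 2.79 (adjusted p = 0.201).

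Spred2, an inhibitor of the step from Ras to Raf, read between -4.13 and -1.91 on replicates 1 to 4 and between 4.04 and 6.17 on replicates 5 to 8. Its turning part was 3.90 ± 0.39 (adjusted p = 0.000352, limma). Its shared part was 1.22 ± 0.39 and did not pass (adjusted p = 0.241). Fosl2, a Fos family transcription factor, lay furthest apart. It read -6.73, -4.20, -5.80 and -6.18 on replicates 1 to 4 and 8.51, 6.61, 3.91 and 6.25 on replicates 5 to 8. The turning part was 6.02 ± 0.49 (adjusted p = 7.43e-05). Among all probes tested 92 had a turning part of at least 16-fold, a log2 size of 4, and 0 had a shared part of that size. Stat5a, Tyk2, Spred2 and Fosl2 had 1 tested probe each.

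**Figure D3:**
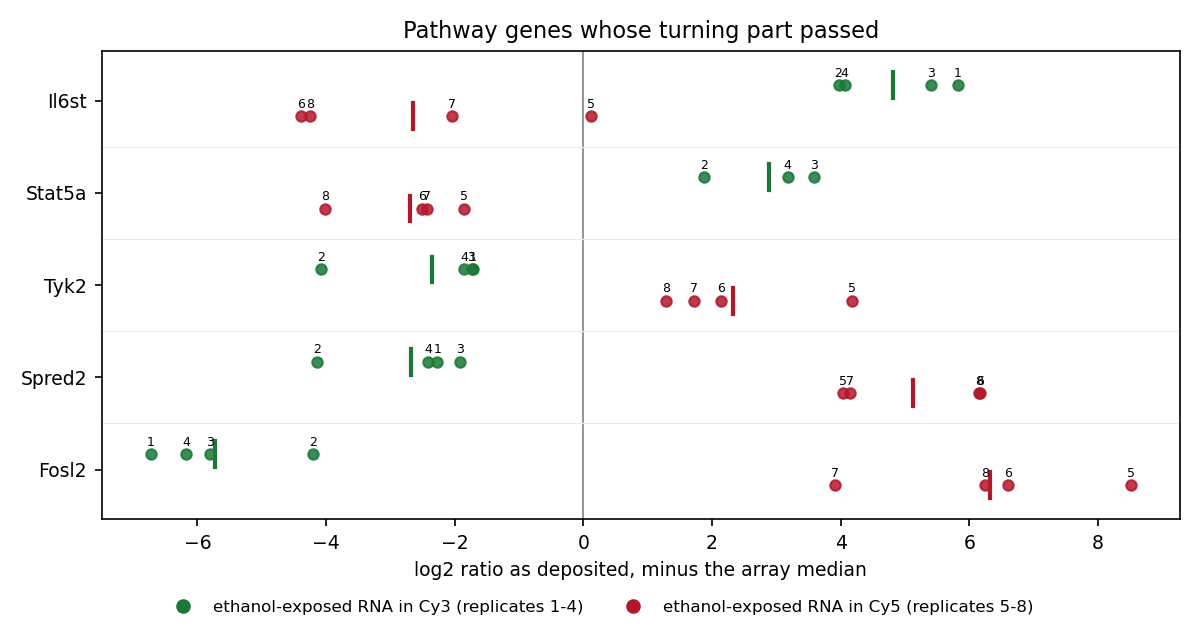
Log2 ratios minus the array's median (horizontal axis, log2 scale) of the 5 pathway genes that passed in the turning part; points are arrays with their replicate numbers, green for exposed RNA in Cy3 and red for Cy5, and ticks are means. Il6st and Stat5a lie higher with exposed RNA in Cy3, and Tyk2, Spred2 and Fosl2 higher with Cy5, where Fosl2 reaches 8.51.

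Among the other FGF family genes, listed by name and not by whether they encode receptor ligands, 10 of 21 probes were tested and 0 passed. Their median turning part was -0.76, with 3 of 10 positive. Fgf16 and Fgf14 had turning parts of -2.25 ± 0.74 and -0.94 ± 0.39, and Fgf12 and Fgf11 shared parts of 1.42 ± 0.36 and -0.50 ± 0.40 (adjusted p from 0.208 to 0.596). Fgf16 read -6.59 on replicate 8, without which its turning part was -1.35, and Fgf11 had a shared part of -0.24 without replicate 2. Of 20 probes of other receptors, co-receptors and heparan sulphate genes none passed; the proteoglycan gene Gpc1 had a shared part of -1.15 ± 0.34 and was negative on 7 of 8 arrays (adjusted p = 0.228). Flrt3, a membrane protein that binds the receptors, had one of -1.47 ± 0.55, and -0.95 without replicate 5. Gpc2 and the ligand-binding protein Fgfbp1 had turning parts of -1.57 ± 0.58 and -1.64 ± 0.68, and that of Fgfbp1 was -0.87 without replicate 6.

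In the EGF family 6 probes were tested and 0 passed. Errfi1, a feedback inhibitor of Egfr, had a shared part of -1.06 ± 0.37 (adjusted p = 0.258). The ligand Tgfa had 0.33 ± 0.28 in the shared part and -0.43 ± 0.28 in the turning part, and the receptor Erbb4 -0.46 ± 0.45 in the turning part (-0.11 without replicate 1). Osmr, a relative of Lifr that also pairs with gp130, had a shared part of 0.39 ± 0.40 and a turning part of 0.89 ± 0.40 (adjusted p = 0.692 and 0.360); the shared part was 0.20 without replicate 6 and 0.69 without replicate 5. The kinase gene Jak1, negative on 7 of 8 arrays, and the STAT inhibitor Pias1 had shared parts of -1.01 ± 0.33 and -0.99 ± 0.37 (adjusted p = 0.244 and 0.290).

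Adaptors and kinases from Frs2 to ERK had a median shared part of -0.32, with 4 of 17 probes positive and none passing. Sos1, the exchange factor that loads Ras, had the smallest p of the 92 in the shared part. It was negative on all 6 arrays with a value, from -2.87 to -0.93, with a shared part of -1.85 ± 0.36 (adjusted p = 0.164). The docking protein Gab1 had a shared part of -1.22 ± 0.37, and the Raf kinases Araf and Braf turning parts of 1.59 ± 0.57 and 0.80 ± 0.51; that of Braf was 0.33 without replicate 1, and a second Braf probe had 0.09 ± 0.38. With robust regression 4 pathway probes passed in the shared part, all negative, where 208 probes passed in all. They were Sos1, Gpc1 and the syndecan gene Sdc4, each at an adjusted p of 0.0408, and Jak1 at 0.04997; Sdc4 was named after its value was seen.

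The kinase subunit genes Pik3ca and Pik3r2, the second positive on 8 of 8 arrays, had shared parts of -1.32 ± 0.45 and 0.79 ± 0.28, and Pik3ca and Pik3cb turning parts of 0.86 ± 0.45 and 0.26 ± 0.41, with 0 of 7 probes of their list passing. A second Pik3ca probe, AK018164, had a shared part of -0.15 ± 0.30 and a turning part of -0.12 ± 0.30, the opposite sign in the turning part. Feedback inhibitors had a median shared part of 0.62, with 4 of 7 probes positive; besides Spred2 they included Spred1 at -1.13 ± 0.49 in the shared part (-0.75 ± 0.53 by its other probe) and the ubiquitin ligase Cbl at 0.62 ± 0.53 in the turning part. Cbl read 3.14 on replicate 6, without which its turning part was 0.16. Early targets had a median shared part of -0.03 over 11 probes. Myc and Fos had shared parts of 0.82 ± 0.43 and -0.92 ± 0.70 (adjusted p = 0.416 and 0.570). Without replicate 6 that of Myc was 0.51, and without replicate 7 that of Fos was -0.28. Fosl1 had a turning part of -0.69 ± 0.28 (adjusted p = 0.317).

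**Figure D4:**
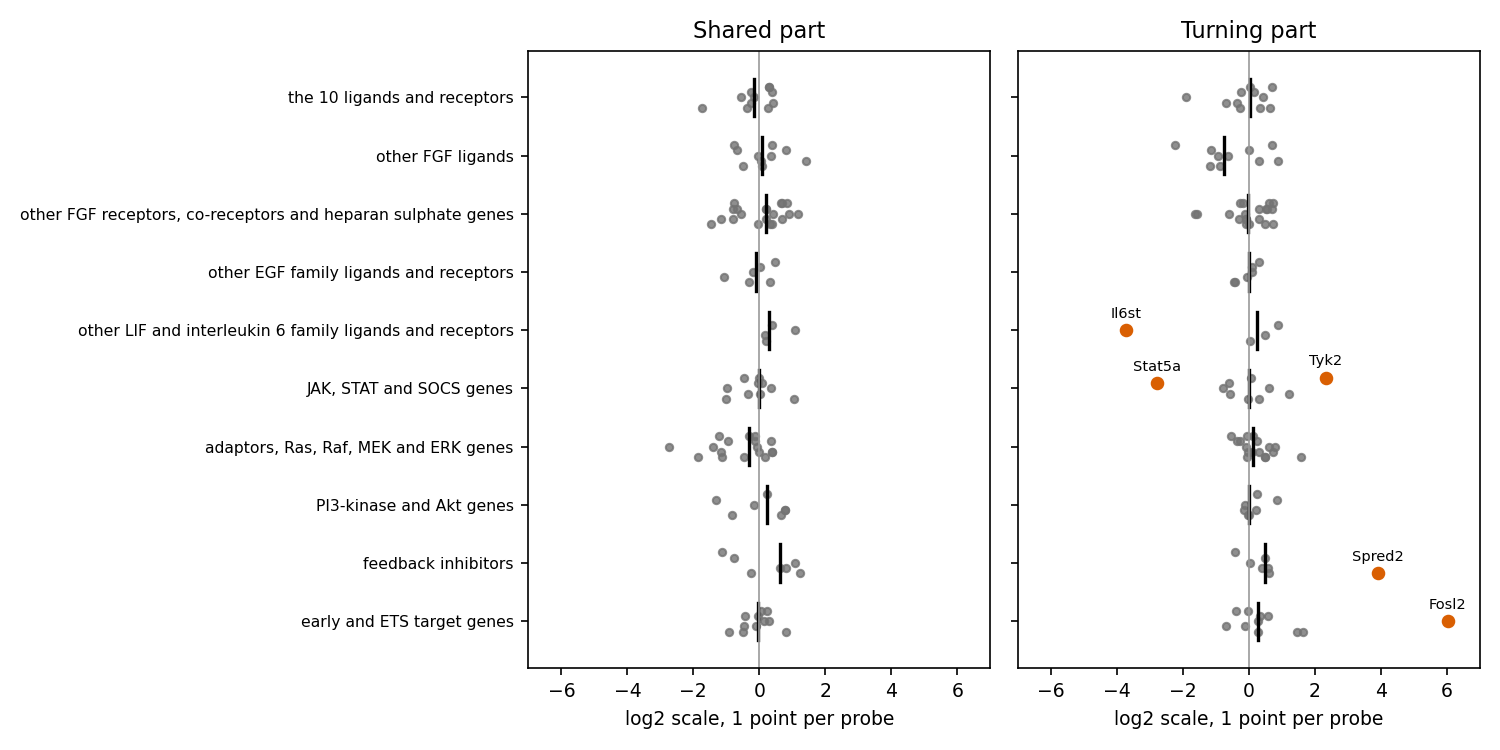
Shared part (left) and turning part (right) of each tested probe by list, on the log2 scale; 1 point per probe, black ticks for the list's median, orange points for an adjusted p under 0.05. The 5 orange points all lie in the turning part, from Il6st at -3.73 to Fosl2 at 6.02, and the top row holds the 11 probes of the ligands and receptors.

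The array profiles most like those of the 7 member probes with values on all 8 arrays were looked up among 8680 named probes by Pearson's r over the 8 arrays. This is a description, since the arrays share an orientation in sets of 4 and many probes were compared. The closest were Mlxipl for Fgf1 NM_010197 (r = 0.969), Gas1 for Fgfr1 (0.961), 1700096K18Rik for Fgfr2 (0.977), Rps18 for Egfr (0.970), Rpl9 for Erbb2 L47239 (0.964), Xpa for Erbb2 U71126 (0.982) and Tor3a for Lifr (0.953). The next were Ptprs and Bdnf for Fgf1, Slc38a10 and AI450353 for Fgfr1, 1700020I22Rik and Cdk5rap3 for Fgfr2, 4930562F07Rik and Prdx1 for Egfr, 4933400L20Rik and Chmp7 for Erbb2 L47239, Lonp2 and Saal1 for Erbb2 U71126, and Klhl21 and Zfp712 for Lifr, at 0.940 to 0.977. No gene was among the closest for more than 1 probe, and the Erbb2 probes shared none.

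Marker lists of the cells such cultures could hold gave no call in either part. The median shared and turning parts were 0.62 and -0.04 over 9 probes for neural progenitors, 0.19 and 0.27 over 6 for neurons, -0.66 and -0.17 over 8 for astrocytes and 0.25 and 0.08 over 8 for the oligodendrocyte lineage. For cells the cultures should hold few of they were -0.19 and 0.63 over 4 for microglia, -0.14 and 0.001 over 6 for endothelial and mural cells, and -0.37 and -0.07 over 3 for meningeal fibroblasts. Progenitor markers lay on the positive side of the shared part for 7 of 9 probes and astrocyte markers for 2 of 8, beside 46.1% of all probes tested. The progenitor markers Sox2 and Hes5 were negative, at -0.57 and -0.28. For neurons 3 of 6 were positive, for the oligodendrocyte lineage 5 of 8 and for microglia 2 of 4. For endothelial and mural cells 2 of 6 were, and for meningeal fibroblasts 0 of 3. The part of these cell types in the values of the growth factor genes was not tested.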

How the data were processed

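As deposited by the authors, each array has 1 log2 ratio per probe, and how background was handled, how it was normalized and in which direction it was taken is not given in the sources used here. RNA was labelled with a dendrimer kit for Cy3 and Cy5, per the labels' protocols. Exact zeros and each array's single highest value (108 to 464 probes) were taken as missing, since low ratios on every array sit on a grid of 3 decimals plus 1 constant and the highest value equals that constant plus the log2 of 100000. Arrays were centred on their medians, which ran from -0.435 to 0.516.

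The 15345 probes with 3 or more computable values in each orientation were fitted with limma 3.58.1 (R 4.3.3; lmFit, eBayes), tested on simulated data, with Benjamini-Hochberg adjustment over all of them and a threshold of 0.05. Symbols come from the platform's annotation, updated by Entrez number (16635 probes with 1 symbol, 113 with several, 4834 unlisted, 15957 matched). Promoter sequences were found for 8 of the 10 genes. The members and lists were chosen with earlier results of these data known. Named were all member probes, every pathway gene that passed, the 2 genes with the smallest unadjusted p per list and part, and the 3 most similar genes per complete member probe. Alternatives are given in the closing section. The number of arrays limits the precision.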

Additional observations from a re-analysis of the deposited data

Results flagged for a closer look

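In 66 groups of 4 arrays, 3 values stood apart from the rest of their orientation by Dixon's criterion, which chance meets in about 1 in 20 groups. With exposed RNA in Cy3, the Erbb2 probe L47239 lay at -2.34 on replicate 2 while replicates 1, 3 and 4 spanned -0.17 to 0.14. Tyk2 lay at -4.07 on the same array, below a span of -1.86 to -1.72. Pias1 lay at -3.03 on replicate 1, below a span of -1.27 to -0.93.

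The orientations differed by the test of the turning part for Il6st at -3.73, Stat5a at -2.79, Tyk2 at 2.34, Spred2 at 3.90 and Fosl2 at 6.02. For Fgf2, at -1.89, and Fosl1, at -0.69, every value of 1 orientation was positive and every value of the other negative. The test of the difference did not pass (limma adjusted p = 0.117 and 0.317). Orientations on opposite sides of 0 were found for 4.29% of all probes tested. Only the probes named by rule were searched for this. Stat3, outside them, had it too, at 0.949 to 1.455 with exposed RNA in Cy3 and -0.835 to -0.094 with Cy5. In the values as deposited Fosl1 read -0.41 to 0.66 and -1.36 to -0.06, so its orientations overlapped, whereas those of Fgf2 did not.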

How the results depend on the processing

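No member probe passed under any of 19 alternatives except Fgf2 in the turning part with robust regression, where 1 passed. The turning part of Fgf2 kept its sign in the 16 alternatives that could fit it, from -2.13 to -1.48, and the shared part of the Fgf1 probe AF067191 did in 16, from -2.08 to -1.27. The count of all probes passing in the turning part, 239, was 417 without centring, 744 with robust regression, 73 without the r arrays and 143 to 188 with single arrays left out, where replicates 4, 6 and 8 gave 150, 145 and 143. In the shared part it rose from 0 to 208 with robust regression and to 1 with the highest value kept. The alternatives for the other pathway genes were chosen after seeing the data: 4 passed in the shared part with robust regression, and 2 in the turning part without the r arrays. Arrays that share a code number did not deviate together (r = 0.0442, 0.0137 and -0.0157), so they were not paired. With the code number as a replicate block over 6 arrays, 85 probes passed in the turning part, 2 of them pathway probes. There the shared part of Fgfr2 was -0.31, and Il6st and Tyk2 did not pass (adjusted p = 0.0608 and 0.123). The members' median shared part was 0.26 over the 7 probes with values on all arrays.

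Signs of uncalled values turned as follows. Without centring the turning parts of Fgfr1 and Egf were 0.0933 and 0.0317; with exact zeros kept that of Fgfr1 was 0.0194. With robust regression the shared part of Erbb2 L47239 was 0.0293. Pik3cb had a turning part of -0.35 without the r arrays and -0.10 with the block. With single arrays left out, shared parts ranged from -0.33 to 0.13 for Erbb2 L47239, -0.53 to 0.0342 for Fgf1 NM_010197, -0.0236 to 0.69 for Lifr and -0.0926 to 0.48 for Fgfr2. Turning parts ranged from -0.15 to 0.26 for Erbb2 X66236, -0.0253 to 0.28 for Erbb2 U71126, -0.14 to 0.67 for Fgf1 AF067191 and -0.46 to 0.0503 for Egf. The causes were not tested. Files without intensities cannot tell dim probes from bright ones.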
